A study of Mus musculus with 6 samples.

Results

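The carboxylesterase 2 genes Ces2a, Ces2b, Ces2c, Ces2e and Ces2g of the mouse are described here in liver RNA. They are 5 of the 23412 gene rows of the count table, and of the 8 Ces2 rows in it. They were chosen by name, with their values in the comparison of liraglutide with phosphate-buffered saline (PBS) already known, so these values are given as a description and carry no test. Transcripts were sequenced from livers of C57BL/6J mice, an inbred strain, labelled as 8 weeks old and given a high-fat diet for 4 weeks. In 3 libraries (HFD_Lira3d) the mice had then received liraglutide under the skin at 300 µg/kg for 3 days, and in 3 libraries (HFD_PBS3d) PBS. Liraglutide activates the GLP-1 receptor, through which a hormone of the gut promotes insulin release and reduces appetite. All 6 libraries come from the high-fat diet, and the labels name neither a group on standard diet nor one matched for food intake. They do not tie each replicate to an animal of its own, and the spread behind the p-values may therefore be technical in part. Pairs of libraries within a group differed beyond sampling noise (chi-square per degree of freedom between 31 and 61.3), and the source of this spread was not tested.

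Carboxylesterases are serine hydrolases that sit mostly in the lumen of the endoplasmic reticulum and cut ester and amide bonds. Liver and small intestine hold much of this activity, which activates or clears many ester drugs and, for several family members, also acts on acylglycerols. Humans have a single CES2 gene, known for activating the anticancer prodrug irinotecan, whereas the mouse carries a row of Ces2 genes side by side. In the mouse, the product of Ces2c is known as an acylcarnitine hydrolase and as an acylglycerol hydrolase, and the products of Ces2a and Ces2e as pyrethroid hydrolases. CAR and PXR, which sense foreign compounds in the liver cell nucleus, are known to act on several Ces genes.

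The 5 genes lie on the plus strand of chromosome 8 within 235.5 kb (104734003 to 104969537 on GRCm38, GENCODE M21), each annotated there as protein-coding. Ces2a spans 104734003 to 104741634, Ces2b 104831572 to 104840093, Ces2c 104847068 to 104854483, Ces2e 104926260 to 104934672 and Ces2g 104961718 to 104969537. The pseudogene Ces2d-ps and the gene Ces2f lie between them, and Ces2h, Ces3a, Ces3b and Ces4a follow downstream. The Ces1 genes and Ces5a lie elsewhere on the same chromosome.

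The sequences before the start sites of Ces2a, Ces2c, Ces2e and Ces2g are shown because the transcripts of these genes were all lower after liraglutide. Of the 5 genes, 4 had an entry in the RefSeq promoter table (GRCm38.p6), and Ces2b had none there. Each sequence holds the 250 bases before the annotated start, 5′ to 3′ on the plus strand. Capitals mark matches to the motifs AGGTCA and AGTTCA (nuclear receptor half-sites), CAAAGT (the core of HNF4 sites) and TATAAA, searched on both strands. The windows are chr8:104733753-104734002 for Ces2a, chr8:104846818-104847067 for Ces2c, chr8:104926010-104926259 for Ces2e and chr8:104961468-104961717 for Ces2g.
Ces2a: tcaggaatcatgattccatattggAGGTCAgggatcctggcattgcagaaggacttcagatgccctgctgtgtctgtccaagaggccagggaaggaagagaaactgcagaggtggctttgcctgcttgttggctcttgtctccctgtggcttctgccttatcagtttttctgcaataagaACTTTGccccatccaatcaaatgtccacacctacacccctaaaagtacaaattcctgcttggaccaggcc
Ces2c: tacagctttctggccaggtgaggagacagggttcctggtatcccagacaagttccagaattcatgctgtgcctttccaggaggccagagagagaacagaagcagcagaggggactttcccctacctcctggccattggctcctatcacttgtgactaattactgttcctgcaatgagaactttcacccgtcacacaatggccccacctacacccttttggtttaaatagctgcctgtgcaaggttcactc
Ces2e: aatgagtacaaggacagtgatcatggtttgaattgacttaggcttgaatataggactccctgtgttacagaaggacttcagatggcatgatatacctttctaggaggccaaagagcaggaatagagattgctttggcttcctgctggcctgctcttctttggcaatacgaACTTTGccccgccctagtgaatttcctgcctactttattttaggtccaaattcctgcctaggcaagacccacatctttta
Ces2g: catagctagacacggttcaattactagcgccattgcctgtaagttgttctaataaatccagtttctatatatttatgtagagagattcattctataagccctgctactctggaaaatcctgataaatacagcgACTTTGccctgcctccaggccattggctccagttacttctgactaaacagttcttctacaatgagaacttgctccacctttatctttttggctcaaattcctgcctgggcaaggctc

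CAAAGT was found in the promoters of Ces2a, Ces2e, Ces2f and Ces2g, in each case as ACTTTG on the printed strand. Its first base stood at -70, -80, -92 and -117 relative to the start site in these 4 genes. No match was found in the windows of Ces2c and Ces2h, so 4 of 6 Ces2 promoters held it, against 12.6% of the 32851 promoters of that length in the table. AGGTCA was found in Ces2a (at -226) and in Ces2h, and in 14% of all promoters. AGTTCA (11.8% of all promoters) and TATAAA (12.4%) were found in none of the 6 Ces2 windows. In pairwise global alignments the windows of Ces2a, Ces2c, Ces2e and Ces2g were between 72.6% and 76.6% identical over the aligned bases, and that of Ces2c was 73.2% identical to Ces2a and 74.5% identical to Ces2g. These matches are letters in a window and were not tested as binding sites. The Ces2 windows resemble one another, so the 4 with CAAAGT are not independent cases to set against 12.6%.

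Close copies decide how far each row can be read. The coding sequences of the 5 genes were between 82.8% and 92.8% identical, with Ces2b and Ces2c the closest pair. Reads are shorter than genes, so exact words were counted: of the 50-base words in the transcript of Ces2c, 42.2% also occurred in a transcript of another gene, mostly in Ces2d-ps and in the pseudogene Gm8798. This share was 25.9% at 75 bases and 16% at 100 bases. For Ces2a it was 22.2%, 14.8% and 10.7% at these lengths, nearly all with the pseudogene Gm7208, and for Ces2b 9.56%, 1.41% and 0.0907%. Ces2e (3.36%, 0.343% and 0%) and Ces2g (3.95%, 0.79% and 0%) shared almost no long words. Neither the read length nor the handling of reads with several matches was given, so the levels of Ces2c, Ces2a and Ces2b are less certain than those of Ces2e and Ces2g. Gm8798 and Gm7208 have no row of their own in the count table.

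Libraries held between 20888991 and 27007182 counts and are named by group and column number (Lira161, Lira162, Lira164, PBS155, PBS157, PBS158). After the low-count filter 12626 genes were tested, of which 1107 (8.77%) passed an adjusted p of 0.05 (edgeR's quasi-likelihood test, adjusted by Benjamini and Hochberg's method), with 4.08% of the tested genes higher and 4.69% lower after liraglutide. Of the passing genes 46.5% were higher, and 57.2% when scaled by library totals alone. The 5 hepatocyte markers found in the table summed to between 65182 and 83494 CPM (read counts scaled to library size) with liraglutide and between 77355 and 98658 CPM with PBS, and 1 of them fell. Markers of cholangiocytes summed to 5.945 to 7.812 CPM with liraglutide and 8.479 to 10.51 CPM with PBS, and markers of macrophages to 163.9 to 265.7 CPM with liraglutide and 75.31 to 270.6 CPM with PBS. Endothelial markers summed to 140.9 to 224.3 CPM with liraglutide and 85.39 to 158.1 CPM with PBS, with 1 of 5 higher, and those of stellate cells and fibroblasts to 278.8 to 320.8 CPM with liraglutide and 166.8 to 275.7 CPM with PBS. Enterocyte markers, of interest because Ces2 genes are active in the gut, summed to 206.6 to 268.5 CPM with liraglutide and 121.1 to 165.6 CPM with PBS. Of these 5 genes only Fabp2, which liver also expresses, could be tested, and it rose. Markers of pancreas, fat and kidney summed to at most 2.459 CPM each in any library, with Pnlip, Amy2a5, Slc34a1 and Kap at 0 throughout. The part of such shifts in the Ces2 values was not tested, and in whole tissue fewer cells of a type and less RNA per cell cannot be told apart.

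Transcripts of Ces2a, Ces2c, Ces2e and Ces2g were lower in every liraglutide library than in every PBS library. The fold was largest for Ces2c, at 6.31-fold lower, followed by Ces2a at 2.76-fold, Ces2e at 2.19-fold and Ces2g at 1.52-fold. Ces2b was close to undetected. All values below are CPM scaled by TMM factors, with n = 3 libraries per group, unless counts are named.

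Ces2a had 61.7, 40.9 and 91.8 CPM in Lira161, Lira162 and Lira164, against 154, 191 and 192 CPM in PBS155, PBS157 and PBS158. The liraglutide libraries were spread over a wider relative range than the PBS libraries, with Lira162 lowest and Lira164 highest. Means were 64.8 ± 25.6 (SD) with liraglutide and 179 ± 21.6 CPM with PBS, a log2 fold change of -1.46 ± 0.29 (SE).

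Ces2c, the acylcarnitine hydrolase gene, had 82, 45 and 84 counts in Lira161, Lira162 and Lira164, and 500, 498 and 372 counts in PBS155, PBS157 and PBS158. These counts amount to 3.95, 1.74 and 3.50 CPM in the liraglutide libraries and to 18.3, 21.3 and 17.9 CPM in the PBS libraries. Lira162 was again the lowest library, and the gap between the groups was wide against the spread within either. The means were 3.06 ± 1.17 CPM with liraglutide and 19.2 ± 1.88 CPM with PBS, a log2 fold change of -2.66 ± 0.26. Its pseudogene partner Ces2d-ps ran the other way at the edge of detection, with 11, 10 and 11 counts in the liraglutide libraries and 4, 4 and 7 counts in the PBS libraries, and was not tested. Summed to 1 feature, a choice made after the data were seen, Ces2c and Ces2d-ps had 93, 55 and 95 counts with liraglutide and 504, 502 and 379 counts with PBS (log2 fold change -2.47 ± 0.24).

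Ces2e, a pyrethroid hydrolase gene, had 58.2, 53.6 and 64.7 CPM in the liraglutide libraries and 126, 118 and 143 CPM in the PBS libraries. Both groups were tight, and their log2 fold change of -1.13 ± 0.11 had the smallest error of the 4 genes. Ces2g had 23.7, 25.1 and 31.2 CPM in the liraglutide libraries, against 39.5, 41.3 and 40.4 CPM in the PBS libraries. Here the PBS libraries almost coincided, and Lira164 came nearest to them (log2 fold change -0.60 ± 0.12). Of the 5 genes, these are the ones that share the fewest words with other genes.

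Ces2b had 0, 0 and 1 counts in Lira161, Lira162 and Lira164, and 8, 0 and 1 counts in PBS155, PBS157 and PBS158. It did not pass the low-count filter and was not tested. Only PBS155 held more than 1 of its reads, too few to compare the groups.

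**Figure D1:**
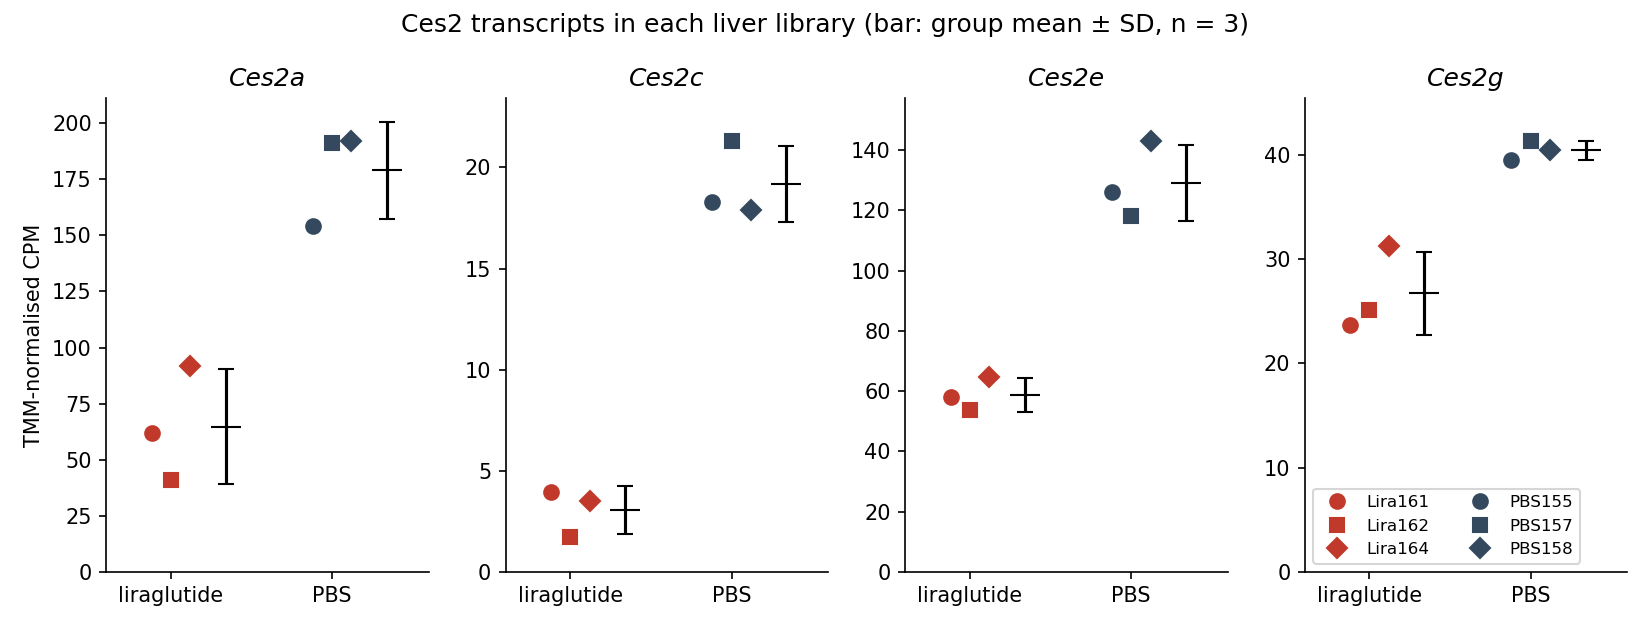
TMM-normalised CPM (vertical axes, linear, each panel with its own scale from 0) of Ces2a, Ces2c, Ces2e and Ces2g in the 3 liraglutide libraries (red, left) and the 3 PBS libraries (dark blue, right), with each group's mean ± SD in black. In each panel the highest liraglutide library lies below the lowest PBS library, for Ces2c at 3.95 against 17.9 CPM.

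In the fit of all genes, 4 of the 5 genes were tested, and the 4 lay past the threshold on the lower side, where 4.69% of all tested genes did. Their groups did not overlap, which held on the lower side for 16.4% of all tested genes and in either direction for 31.3%. The genes were chosen on this contrast, so nothing is read from these counts. Their median log2 fold change was -1.30, beside 0.01 over all tested genes. Ces2c and Ces2e passed the threshold whichever library was left out. Ces2a passed only without Lira162 or Lira164 (log2 fold changes -1.23 and -1.81) and failed without Lira161, PBS155, PBS157 or PBS158 (between -1.57 and -1.41) and without the low-count filter (-1.47). Ces2g failed without Lira161, Lira162 or PBS158 (-0.52, -0.56 and -0.60). The number past the threshold was 2 without Lira161 and 2 without PBS158.

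Summing all 8 Ces2 rows keeps reads that move between these genes in 1 total. Reads placed at Gm7208 or Gm8798, which have no row, or dropped for several matches would stay outside it. The sum was 3083, 3160 and 4610 counts in Lira161, Lira162 and Lira164, and 9256, 8698 and 8199 counts in PBS155, PBS157 and PBS158. Lira164 stood above the other liraglutide libraries and well below the PBS libraries, and the log2 fold change of the sum was -1.26 ± 0.16. Leaving out a library moved it between -1.46 and -1.12.

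Levels can be compared between genes only per transcript length, here CPM per kb of annotated exons. With PBS, Ces2a was highest at 75.8 ± 9.17 CPM per kb, then Ces2e at 47.8 ± 4.68, Ces2g at 11.3 ± 0.25 and Ces2c at 8.34 ± 0.82. With liraglutide the order of the means was the same, but Ces2a (26.2, 17.3 and 38.9 CPM per kb) and Ces2e (21.5, 19.9 and 24.0) overlapped and could not be ordered. Ces2g (7.46 ± 1.11) and Ces2c (1.33 ± 0.51) stayed apart. More 50-base words of Ces2c (42.2%) than of Ces2g (3.95%) occur in other genes, and how such reads were counted is not known. The order of these 2 genes with PBS is therefore uncertain. Within the family, Ces2a with PBS lay below Ces1c, Ces3a, Ces1d, Ces3b and Ces1f and above Ces1b and Ces4a, and its libraries overlapped those of Ces1e (69.6 ± 21.7 CPM per kb with PBS) and Ces1g (68.9 ± 12.5). At the top of the family, Ces3a stood at 631 ± 165 with liraglutide and 973 ± 53.7 CPM per kb with PBS, and Ces1c at 870 ± 118 with liraglutide and 986 ± 159 with PBS.

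The 4 transcripts fell by unequal amounts, so their proportions shifted. Of the CPM per kb summed over them, Ces2c made up 3.07%, 1.68% and 2.08% in Lira161, Lira162 and Lira164, against 6.08%, 6.38% and 5.07% in PBS155, PBS157 and PBS158. Ces2g made up 11.8%, 15.6% and 11.9% with liraglutide, against 8.44%, 7.95% and 7.38% with PBS. The groups did not overlap for either share, with Ces2c the lower and Ces2g the higher with liraglutide. The shares restate the unequal folds of genes chosen on this contrast, so nothing further is read from this. The size of each share rests on the counts as given, and words shared with other genes make those of Ces2c and Ces2a less certain. The share of Ces2a was 46.1 ± 7.35% with liraglutide and 52.8 ± 2.94% with PBS, that of Ces2e 38.5 ± 5.68% with liraglutide and 33.4 ± 2.99% with PBS, and for both the groups overlapped. A ratio of counts within a library needs no scaling between libraries: the log2 ratio of Ces2c to Ces2g averaged -3.20 ± 0.64 with liraglutide and -1.08 ± 0.11 with PBS, a difference of -2.12. For Ces2a to Ces2g the difference was -0.92, and for Ces2e to Ces2g -0.52. A ratio shows only that 2 transcripts changed unequally.

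**Figure D2:**
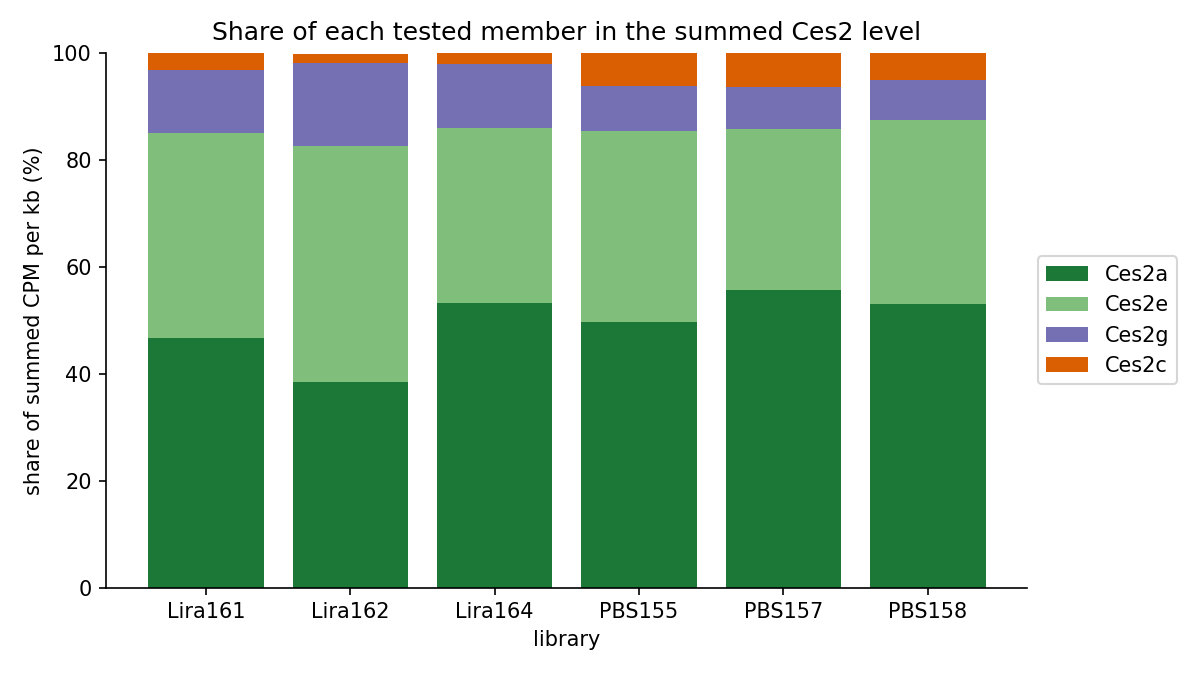
Share (%, stacked to 100) of Ces2a, Ces2e, Ces2g and Ces2c in their summed CPM per kb, 1 bar per library, liraglutide libraries on the left and PBS libraries on the right. The top segment, Ces2c, is between 1.68% and 3.07% in the liraglutide libraries and between 5.07% and 6.38% in the PBS libraries.

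The remaining Ces2 rows were barely present in these livers. Ces2f had 0 counts in each of the 6 libraries. Ces2h had 13, 7 and 8 counts in the liraglutide libraries and 17, 17 and 8 counts in the PBS libraries, with a log2 fold change of -0.53 ± 0.45 (edgeR adjusted p = 0.496). It was the only one of the other 3 Ces2 rows that could be tested, and 0 were called by edgeR, at an unadjusted p under 0.05, or by DESeq2.

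The 9 tested carboxylesterase genes outside Ces2 had negative fold changes as well, and 3 of them fell (33.3%). Of all tested genes, 4.69% were lower and 8.77% were called in either direction. The median log2 fold change of the 9 genes was -0.74, with a range of -1.87 to -0.18. This list was chosen with earlier results of these data known, so its share is a description. Ces1g, known for a part in hepatic lipid secretion, had 28.2, 39.3 and 67.3 CPM in the liraglutide libraries and 168, 133 and 192 CPM in the PBS libraries (log2 fold change -1.87 ± 0.34, edgeR adjusted p = 0.0252). Ces1d, a triacylglycerol hydrolase gene, averaged 425 ± 86.1 CPM with liraglutide and 849 ± 129 CPM with PBS (log2 fold change -0.997 ± 0.170, edgeR adjusted p = 0.0102). Ces3b, which lies beside the Ces2 genes, averaged 259 ± 82.1 CPM with liraglutide and 559 ± 91.6 CPM with PBS (log2 fold change -1.11 ± 0.25, edgeR adjusted p = 0.0332). The abundant Ces3a (-0.63 ± 0.19, edgeR adjusted p = 0.0722) and Ces1c (-0.18 ± 0.16, edgeR adjusted p = 0.521) did not pass.

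The number of lower genes in that list was 5 without Lira164, 1 without PBS157 or PBS158, and 6 with DESeq2. Ces1d was called whichever library was left out, at an adjusted p up to 0.0483. Ces1g was called only without Lira161 or Lira164, and its adjusted p otherwise reached 0.124. Ces3b lost its call without Lira161, PBS157 or PBS158, with an adjusted p of at most 0.102. The Ces genes are paralogs, so their rows may share reads. Ces1h was not found in the table, Ces5a had 0 counts in every library, and Ces1a had between 1 and 5 counts.

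**Figure D3:**
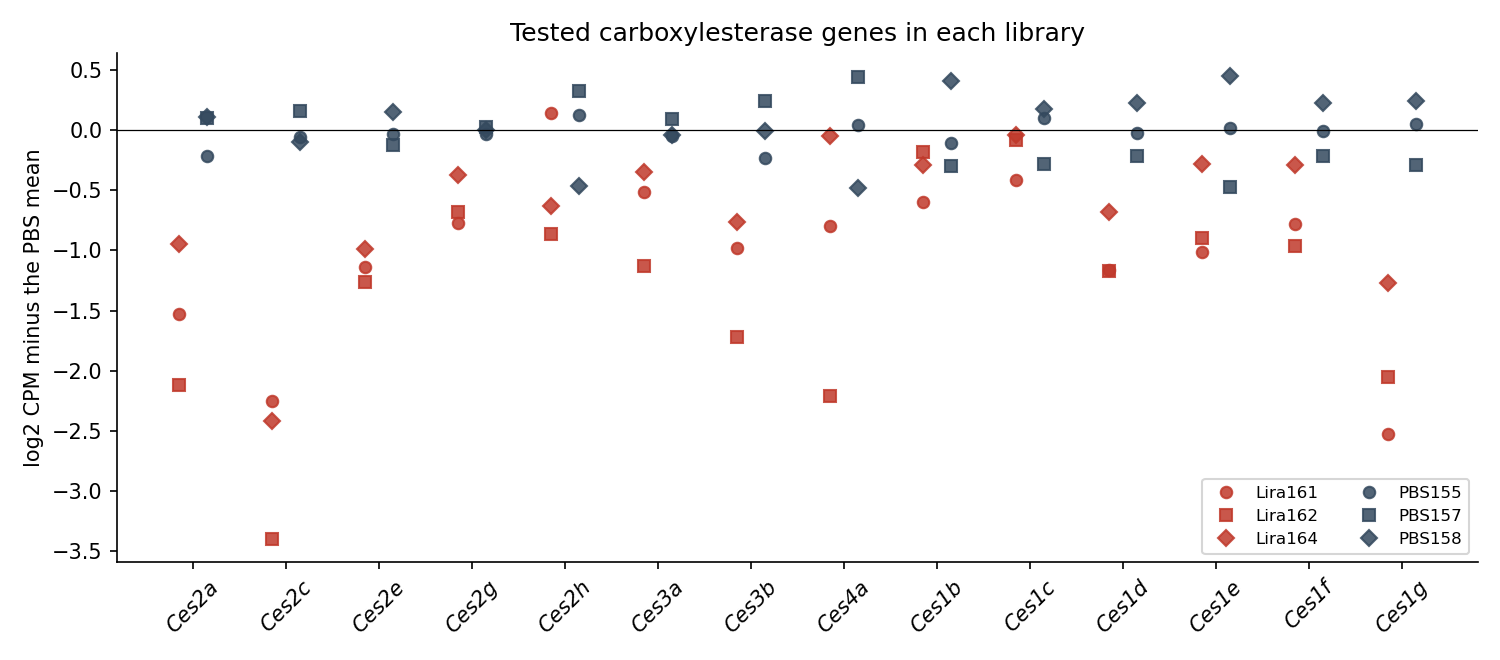
Log2 CPM relative to the PBS mean (vertical axis) for the 14 tested Ces genes, with liraglutide libraries in red and PBS libraries in dark blue, 1 symbol per library. For the 4 Ces2 genes on the left the liraglutide symbols lie below the PBS symbols, with Ces2c at -2.25, -3.40 and -2.42, whereas the groups overlap for Ces2h, Ces4a, Ces1b, Ces1c and Ces1e.

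Genes around the cluster that are not carboxylesterases were set beside it. These were the 35 protein-coding genes whose lower chromosome coordinate lay within 500 kb of the outer ends of the 5 Ces2 genes. For genes on the minus strand this coordinate is the end of the gene. Of the 35 genes, 33 were in the table and 22 were tested. By edgeR or by DESeq2 0 passed, with 2 at an unadjusted p under 0.05. Over all tested genes 8.77% were called, a share at which a count of 0 among 22 is no result about the neighbours. Their median log2 fold change was 0.07, with a range of -1.05 to 0.87. The highest expressed were Cmtm4, at 96.8 ± 7.34 CPM with liraglutide and 82.5 ± 19.0 CPM with PBS, and D230025D16Rik, at 73.9 ± 6.81 CPM with liraglutide and 70.7 ± 19.8 CPM with PBS. Without PBS155, Cmtm4 was called, on the higher side (adjusted p = 0.048). Against these 22 values the 4 Ces2 values were set side by side only, since the Ces2 genes were chosen on the same contrast.

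**Figure D4:**
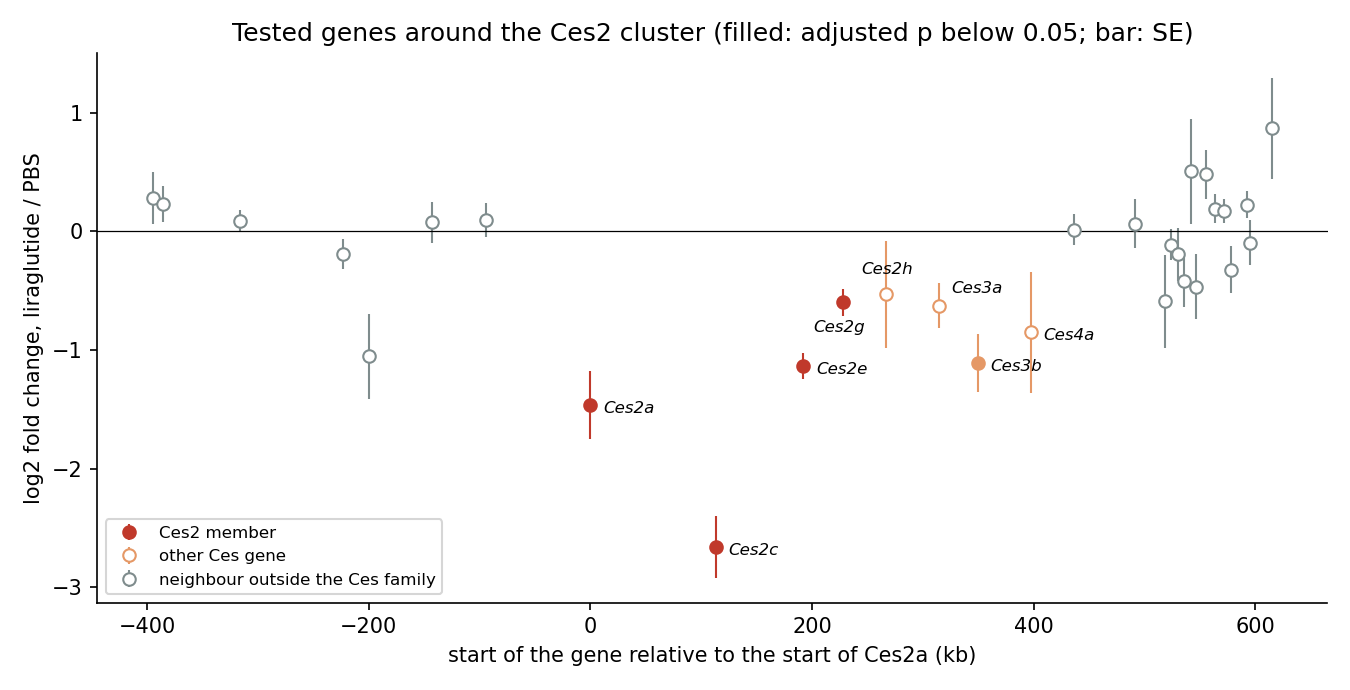
Log2 fold change of liraglutide over PBS with its SE (vertical axis) of each tested gene. The horizontal axis gives the distance in kb of each gene's lower coordinate, called start in the axis label, from the start of Ces2a. Ces2a, Ces2c, Ces2e and Ces2g are in red, other Ces genes in orange and neighbours outside the family in grey. Points are filled where the adjusted p was below 0.05. The filled points are Ces2a, Ces2c, Ces2e, Ces2g and Ces3b, and the 22 grey points between -1.05 and 0.87 are all open.

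Genes with related enzyme work moved in both directions. Among 17 tested genes listed as neutral lipid hydrolases, 6 rose and 1 fell, so 41.2% were called, against 8.77% of all tested genes. Not all of them act on stored fat or sterol esters. The list's median log2 fold change was 0.14, beside 0.01 over all tested genes. This list and the gene lists below were chosen with earlier results of these data known, so their shares are a description. Nceh1, a cholesteryl ester hydrolase gene, rose by 1.02 ± 0.13 on the log2 scale (edgeR adjusted p = 0.00399) and the phospholipase gene Ddhd2 by 0.94 ± 0.13 (adjusted p = 0.00581). Mgll, the monoacylglycerol lipase gene, rose by 0.51 ± 0.10, the endothelial lipase gene Lipg by 0.82 ± 0.17 and Pnpla2, the gene of adipose triglyceride lipase, by 0.95 ± 0.20. Aadac, the arylacetamide deacetylase gene, was the member that fell. It codes for an esterase of the endoplasmic reticulum and averaged 234 ± 42.8 CPM with liraglutide and 404 ± 21.6 CPM with PBS (log2 fold change -0.78 ± 0.14, edgeR adjusted p = 0.0128). The count of 7 became 3 without Lira161, Lira162 or PBS158 and 4 without PBS155. Mgll was not called without Lira161, Lira162, PBS157 or PBS158, Lipg without Lira161, Lira162 or PBS155, Pnpla2 without Lira161, Lira162, PBS155 or PBS158, and Aadac without PBS158.

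Of 13 tested hydrolases of drug metabolism, which include Aadac, 2 fell (15.4%), against 4.69% of all tested genes lower and 8.77% called in either direction. This share lies above both, but a count of 2 among 13 genes is too small to be a result about the list. The list's median log2 fold change was -0.23. Besides Aadac the gene that fell was Afmid, which codes for the arylformamidase of tryptophan breakdown. Afmid averaged 75.4 ± 20.2 CPM with liraglutide and 182 ± 22.1 CPM with PBS (log2 fold change -1.27 ± 0.19, edgeR adjusted p = 0.00773). The count of 2 was 4, with 2 genes higher, without Lira164 and with DESeq2, and 1 without PBS158.

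Among 26 tested targets of CAR and PXR other than Ces2 genes, 7 fell and 1 rose, so 30.8% were called, against 8.77% of all tested genes, and the median log2 fold change was -0.47. The aldehyde dehydrogenase genes Aldh1a7 (-1.004 ± 0.123, edgeR adjusted p = 0.00399) and Aldh1a1 (-1.01 ± 0.19) fell, and so did Papss2, which makes the sulfate donor (-0.75 ± 0.12), the sulfotransferase gene Sult1d1 (-0.51 ± 0.12) and the glutathione transferase gene Gsta4 (-0.60 ± 0.11). Por, the electron donor of microsomal cytochromes P450, rose by 0.74 ± 0.17. Cyp2b10, a marker gene of CAR activity in mouse liver, was too low to be tested, and Cyp3a11, a marker gene of PXR activity, averaged 231 ± 146 CPM with liraglutide and 358 ± 136 CPM with PBS (edgeR adjusted p = 0.570). Cyp2a5 had the lowest log2 fold change of the list (-2.64 ± 0.59), at 66.4 ± 48.3 CPM with liraglutide and 415 ± 129 CPM with PBS. It did not pass (edgeR adjusted p = 0.0604), and of the fits leaving out a library only that without Lira164 called it. Cyp2b10, Cyp3a11 and Cyp2a5 were named after their values were seen. The count of 8 was 3 without Lira161, 2 without Lira162 or PBS158 and 5 without PBS155. Without a library the calls of Gsta4 and Aldh1a1 were lost for Lira161, Lira162 and PBS158, of Sult1d1 for Lira161, Lira162, PBS157 and PBS158, and of Por for Lira161, Lira162, PBS155 and PBS158.

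Among 18 tested regulators of such genes, 1 passed (5.56%), against 8.77% of all tested genes, so the count is no result about the list. Hnf4a, a nuclear receptor that maintains hepatocyte genes, averaged 1081 ± 78.7 CPM with liraglutide and 751 ± 85.6 CPM with PBS (log2 fold change 0.53 ± 0.13, edgeR adjusted p = 0.0338). The call was lost without Lira161, Lira162, PBS155 or PBS157 (adjusted p up to 0.122). The count of this list was 2, both higher, with library totals, without the low-count filter or with DESeq2, 0 without Lira161, Lira162 or PBS157, 1 other gene, lower, without PBS155, and 8 without Lira164, 4 in each direction.

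Ces2 proteins mature in the endoplasmic reticulum, and of 12 tested genes of disulfide formation, chaperoning and retention there 4 fell (33.3%), against 4.69% of all tested genes lower. The list's median log2 fold change was -0.35. The protein disulfide isomerase genes Pdia6, Pdia4 and Pdia3 fell by 0.73 ± 0.15, 0.62 ± 0.11 and 0.58 ± 0.13 on the log2 scale, and the chaperone gene Calr fell by 0.48 ± 0.11, with edgeR adjusted p between 0.0108 and 0.0279. This count was 0 without Lira161, 1 without Lira162 or PBS158 and 2 without PBS157. Pdia3 lost its call without Lira161, Lira162, PBS157 or PBS158, Pdia6 without Lira161, Lira162 or PBS158, Pdia4 without Lira161, and Calr in each fit without a library except that without Lira164.

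The genes whose profile over the 6 libraries lay closest to each Ces2 gene were found by the root mean square difference of log2 CPM relative to the PBS mean. Nearest to Ces2e were Uroc1, a histidine breakdown enzyme gene (difference 0.061), Hnmt, which inactivates histamine (0.078), and the chloride channel gene Clcn2 (0.079). Nearest to Ces2g were Hgfac (0.061), Pdia4 (0.067) and Dnajc28 (0.069). Nearest to Ces2a were Serpina12, which codes for vaspin (0.144), the cytochrome P450 gene Cyp2c50 (0.164) and the alcohol dehydrogenase gene Adh4 (0.179). Nearest to Ces2c were Gm16063 (0.180), Kif24 (0.216) and C330021F23Rik (0.248), 3 genes with means of at most 1.15 CPM in either group. These outside genes are the closest of all tested genes by construction. Those nearest to Ces2c had 0 to 4 counts in each liraglutide library, where the prior count of 2 added to log2 CPM weighs on the difference. Among the Ces2 genes themselves, the closest pair, Ces2e and Ces2g, differed by 0.388, Ces2a and Ces2e by 0.401, and Ces2c and Ces2g by 1.515. All these genes share the same 6 libraries and a difference between the groups, and the likeness is a description.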

How the data were processed

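Mouse liver RNA was sequenced in 6 libraries, 3 per group. The authors deposited raw read counts per gene symbol, whole numbers that are not normalised, per the file header and values. Reads were aligned with STAR to mm10, per the submitters' processing notes. The counting tool, annotation, strand setting, read length, handling of reads with several matches and versions were not given in the sources used here. Column names carry a group and a number unlike the triplicate numbers in the labels, and each column was therefore tied to a group, not to a sample.

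Genes kept by filterByExpr (12626 of 16949 with a count) were scaled by TMM. The model held the group alone and was fitted by edgeR 4.0.16 (R 4.3.3) through estimateDisp, robust glmQLFit and glmQLFTest. Two-sided p-values were adjusted by the Benjamini-Hochberg method over all tested genes, with a threshold of 0.05. The SE is the log2 fold change divided by the square root of F, as a size. Pairs of libraries within a group differed beyond sampling noise (chi-square per degree of freedom between 31 and 61.3). Log2 CPM of single libraries used a prior count of 2. Alternatives were DESeq2 1.42.0, other scalings, no filter and leaving out each library. Positions and exon lengths come from GENCODE M21 (GRCm38, the assembly of mm10), and promoters from RefSeq. Alignments used Biopython 1.88, and figures matplotlib 3.10.9.

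The Ces2 genes and the gene lists were chosen with earlier results of these data known. Named in each list were the called genes, at most 6 by p, or the 2 most abundant where none was called, and for each tested Ces2 gene the 3 genes with the closest profile. Of the other Ces genes, called ones and the 3 most abundant were named.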

Additional observations from a re-analysis of the deposited data

How the results depend on the processing

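With 3 libraries per group, single libraries decided many calls. Of 41 alternative values for the log2 fold changes of Ces2a, Ces2c, Ces2e and Ces2g, 33 kept their side of the threshold. The other 8 (5 for Ces2a, 3 for Ces2g) no longer passed, and 0 changed sign. These genes were chosen on this contrast and their groups did not overlap, so nothing is read from these counts. Leaving out each library in turn gave between 393 and 1496 called genes in all, 2 to 4 among the Ces2 genes, 0 among the other Ces2 rows, 1 to 5 among other carboxylesterases, 3 to 7 among neutral lipid hydrolases, 1 to 4 among drug-metabolising hydrolases, 2 to 9 among CAR and PXR targets, 0 to 8 among regulators, 0 to 5 among genes of the endoplasmic reticulum and 0 to 1 among neighbours, and the summed Ces2 rows lay between -1.46 and -1.12. DESeq2 called 6 other carboxylesterases, against 3 in edgeR, and 4 drug-metabolising hydrolases, against 2. The regulators called were 2 with library totals, without the low-count filter and with DESeq2, against 1. The causes were not tested. No paired analysis was possible because the columns carry no triplicate number of the labels. Ces2b, at 0 to 8 counts per library, was too low to compare between the groups.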
